A study of Mus musculus with 50 samples.

Results

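The genes described here serve iodide transport and recycling in the thyroid follicular cell: Slc5a5, Slc26a4, Slc26a7, Ano1, Iyd, Kcne2 and Kcnq1. They are 7 of 52636 genes in the count table, found by matching their mouse symbols to the table's Ensembl gene IDs. All 7 were present, and they were chosen for their function, with earlier results of these data known. Their levels were measured in 50 RNA-seq libraries of mouse thyroid, which form 10 groups of 5 libraries. Levels are given in CPM (counts-per-million, on a library size scaled by the TMM method) and as a ratio to the CPM of Pax8, a transcription factor of thyrocytes.

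The mice were male C57BL/6 animals of 10 to 14 weeks per the sample labels, and of up to 12 weeks per the series text. Each received antibodies once, into the peritoneum. The control antibody was directed against ragweed (RW, 40 mg/kg). The ligand blockade, aJ1aJ2, combined antibodies to Jag1 and Jag2 at 20 mg/kg each. The receptor blockade, aN1aN2, combined antibodies to Notch1 (5 mg/kg) and Notch2 (10 mg/kg), and aN1aN2aN3 added an antibody to Notch3 (20 mg/kg). RW, aJ1aJ2 and aN1aN2 were sampled at 15 hours and at 5 days. The 7-day samples form a first set with RW and aJ1aJ2 groups, and a second set in which aJ1aJ2 stands beside aN1aN2aN3 and no RW group was analysed here. The series text also describes injections of the thyroid hormones T4 and T3, but no label says which animals had them. Hormone treatment was therefore not a factor in any fit, and its part in a difference between groups was not tested. The antibodies act in the whole animal and not in thyrocytes alone.

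Thyrocytes take iodide from the blood at their basal side and pass it at their apical side into the follicle, where it is attached to thyroglobulin. Slc5a5 encodes the sodium-iodide symporter (NIS), which carries iodide in across the basolateral membrane with the sodium gradient. Kcnq1 and its accessory subunit Kcne2 form a basolateral potassium channel that iodide uptake by NIS needs. Slc26a4 (pendrin), Slc26a7 and Ano1 (anoctamin-1, a calcium-activated channel) encode anion transport proteins, of which pendrin and anoctamin-1 are known as apical routes of iodide efflux. Iyd encodes iodotyrosine deiodinase, which recovers iodide from the iodinated tyrosines left after thyroglobulin is digested. Notch receptors on a cell are activated by Jag or Delta-like ligands on its neighbours, and the released receptor domain acts on genes through the DNA-binding protein RBPJ.

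The libraries held 15271242 to 52835846 counts. A list of 6 thyrocyte genes took 0.453 to 42.7% of the counts of a library (median 28.8%), a list of 9 skeletal muscle genes 0.0384 to 12.4%, and no gene of either list was at 0 in every library. A pair of 5-day libraries held few thyrocyte transcripts. In RW replicate 3 thyroglobulin (Tg) took 0.450% of counts, the muscle genes 12.4%, and Pax8 stood at 7.31 CPM. In aJ1aJ2 replicate 3 these values were 2.39%, 8.22% and 36.8 CPM. Results at 5 days are therefore also given without both. In the second 7-day set Tg took 1.15 to 6.50% of counts in all 10 libraries. The 6 thyrocyte genes together took a median of 1.86% there in aJ1aJ2 and 4.58% in aN1aN2aN3. In the groups outside that set their medians were 22.1 to 38.7%. The tissue content of that set thus differed from the rest of the series, and its part in the results was not tested. No label says whether libraries are separate animals or share a litter or day, so p-values measure the spread between these samples. In bulk tissue, fewer thyrocytes and less RNA per thyrocyte cannot be told apart.

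Per kilobase of exon, Iyd was the most abundant of the 7 genes and Slc26a4 and Kcne2 were the least. In the 15 RW libraries the median level was 503 CPM per kb for Iyd (13.4 to 635), 176 for Slc26a7 (4.59 to 200.3) and 74.9 for Slc5a5 (0.972 to 160.0). Ano1 followed with 4.69 CPM per kb (1.38 to 7.17) and Kcnq1 with 1.67 (0.192 to 2.35). Slc26a4 had a median of 0.102 and Kcne2 of 0.0749 CPM per kb. The order Iyd, Slc26a7, Slc5a5, Ano1, Kcnq1 held in 47 of 50 libraries, and in the other 3 Ano1 stood above Slc5a5. The ranges of Iyd, Slc26a7 and Slc5a5 overlapped across libraries, while their order within a library was the same in all 50. Exon lengths are those of the GENCODE M21 annotation.

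**Figure D1:**
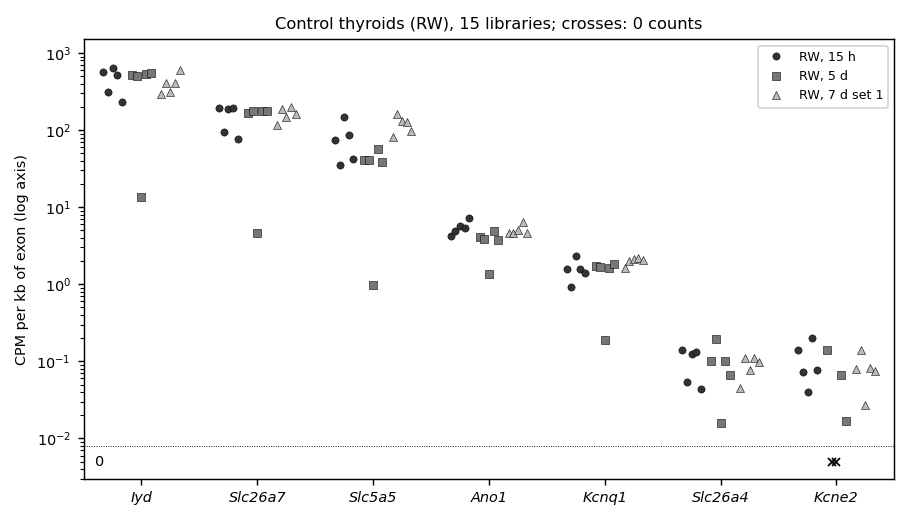
Level of each gene in the 15 control (RW) libraries in CPM per kb of exon, on a log axis. Each point is 1 library, its shape and shade give the time, and crosses under the dotted line are libraries with 0 counts. Medians run from 503 for Iyd to 0.0749 for Kcne2, and the low square in the columns of Iyd, Slc26a7, Slc5a5, Ano1 and Kcnq1 is replicate 3 at 5 days.

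The sequences before the start sites of Slc5a5 and Iyd are shown because these genes stand at uptake and at recycling and carry most of the values that follow. They come from RefSeq (build GRCm38.p6), in which 5 of the 7 genes had a promoter entry. The counts' own build was not given in the sources used here, so the positions are RefSeq's. The capitals mark matches to the RBPJ core TGGGAA or to an NKX2-1 core CAAGTG, both searched on both strands. The motifs do not overlap each other. Each line reads 5′ to 3′ on the gene's strand.
Slc5a5 (chr8:70892758-70893007, minus strand): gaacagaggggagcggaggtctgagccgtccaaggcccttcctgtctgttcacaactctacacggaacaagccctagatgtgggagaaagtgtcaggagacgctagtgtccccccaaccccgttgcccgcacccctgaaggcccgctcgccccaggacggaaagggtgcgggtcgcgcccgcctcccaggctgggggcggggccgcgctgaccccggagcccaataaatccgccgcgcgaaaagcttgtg
Iyd (chr10:3540024-3540239, plus strand): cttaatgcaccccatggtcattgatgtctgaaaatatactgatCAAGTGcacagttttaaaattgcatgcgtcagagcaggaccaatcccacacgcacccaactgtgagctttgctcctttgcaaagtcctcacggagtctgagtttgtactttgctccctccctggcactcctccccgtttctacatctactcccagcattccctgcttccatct
Iyd, the RBPJ core and its neighbours: aatgccagtgTGGGAAagcgcacaca
In windows of 300 bases, 250 before and 50 after the start site, Iyd held the RBPJ core at −15 and the NKX2-1 core at −207. The last 34 bases before the RefSeq start of Iyd, where its RBPJ core lies, are inside the gene in GENCODE M21. Ano1 held the RBPJ core on the reverse strand at −244, in a window that lies wholly inside the GENCODE M21 gene, with its RefSeq start 13401 bases downstream of the GENCODE start. Slc5a5, Slc26a4 and both windows of Kcne2 held neither core. Of 32851 mouse promoter windows of that length, 25.6% held the RBPJ core and 13.6% the NKX2-1 core. A match says only that these letters occur.

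Slc5a5 spanned a wide range of levels across the 10 groups. Its group means, in CPM with the SD over 5 libraries, were 350 ± 89.9 in RW at 7 days, 226 ± 131 in RW at 15 hours and 206 ± 101 in aJ1aJ2 of the first 7-day set. They were 177 ± 77.2 in aJ1aJ2 at 15 hours, 104 ± 60.5 in RW at 5 days and 80.3 ± 37.9 in aN1aN2 at 15 hours. The lowest means were 65.6 ± 17.6 in aJ1aJ2 of the second set, 57.7 ± 50.0 in aJ1aJ2 at 5 days, 49.1 ± 42.6 in aN1aN2 at 5 days and 18.0 ± 13.1 in aN1aN2aN3. All neighbours in this order had overlapping libraries. At each time with an RW group, the RW mean was above the means of the antibody groups of that time and set. The order mixes sets: aJ1aJ2 at 7 days stood at 206 CPM in the first set and 65.6 CPM in the second. A difference between sets was not tested.

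Of the other genes, Slc26a4 and Kcne2 were barely detected. Over single libraries, Slc26a7 ran from 24.9 to 1088 CPM (median 756) and Iyd from 21.7 to 1598 (median 635), against 2.85 to 469 for Slc5a5 (median 97.6). Ano1 ran from 8.59 to 44.8 CPM (median 28.0) and Kcnq1 from 0.785 to 10.5 (median 6.54). Exons of Kcnq1 overlap the antisense transcript Kcnq1ot1, and those of Pax8 overlap Gm13415, so their counts may include reads of both strands, since the use of strand is not given. Slc26a4 had 285 counts in all 50 libraries together (0 to 30 per library, 0 in 4 of them) and Kcne2 had 252 (0 to 20, 0 in 5). A filter on low counts therefore left 6 of 7 genes for testing at 15 hours, all but Kcne2. It left 5 of 7 at 5 days and in each 7-day set, all but Slc26a4 and Kcne2.

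**Figure D2:**
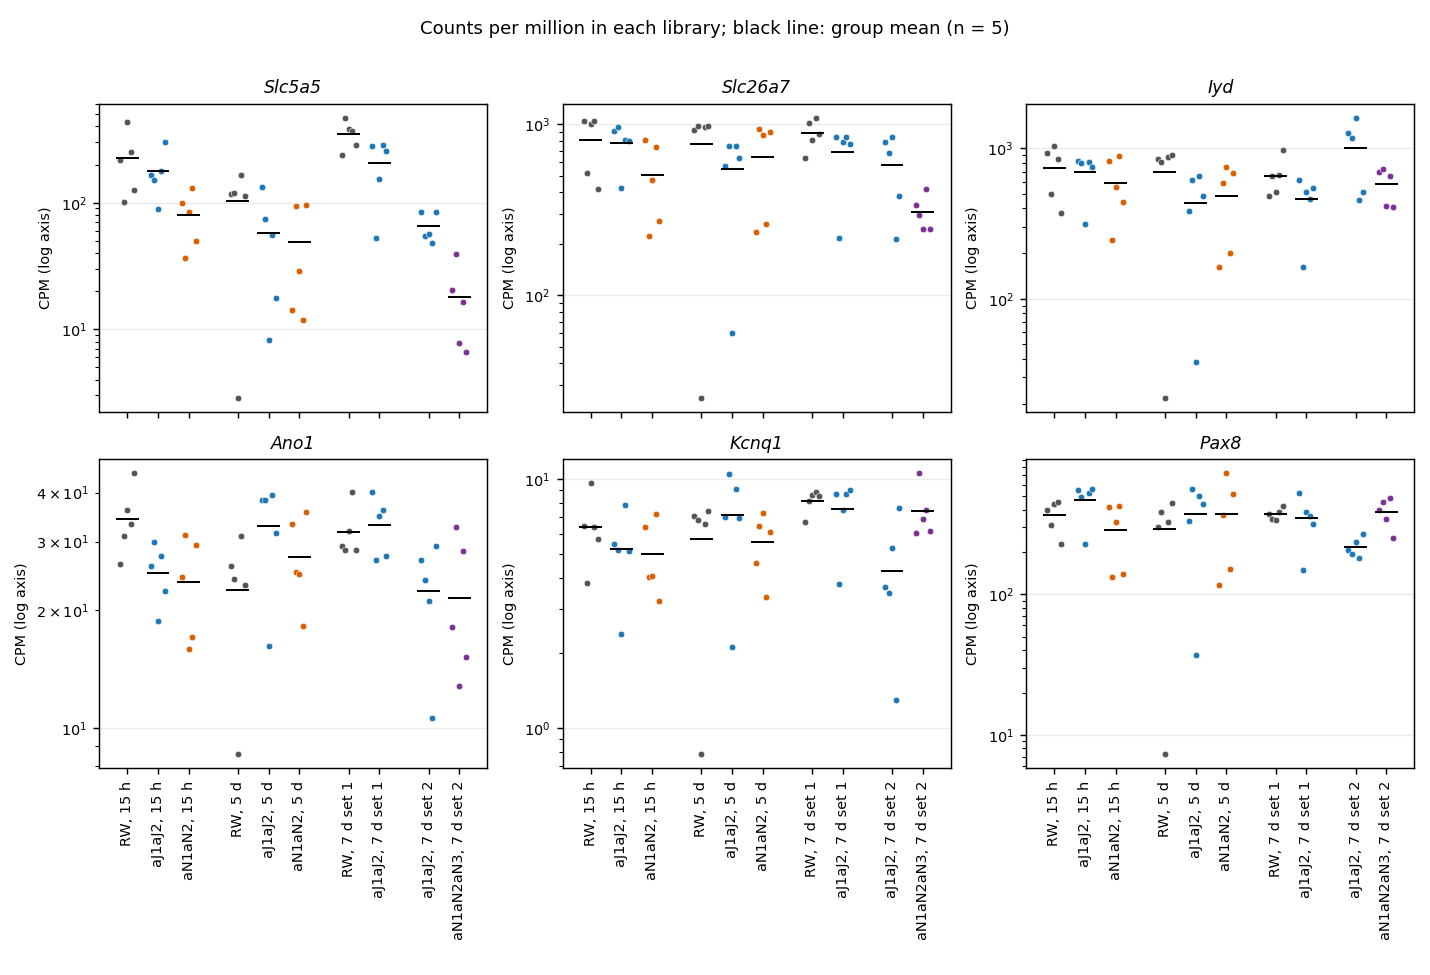
CPM of 5 of the genes and of Pax8 in each of 50 libraries, on log axes, by group, with a black line at the mean of 5 libraries. In the second 7-day set the aN1aN2aN3 libraries lie below every aJ1aJ2 library for Slc5a5 (6.59 to 39.1 against 47.6 to 84.9 CPM), while for Pax8 the aN1aN2aN3 mean is the higher (386 against 217 CPM).

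At 15 hours after ligand blockade, no gene of iodide transport passed the test against RW. Slc5a5 stood at 219, 102, 432, 250 and 125 CPM in RW. In aJ1aJ2 it stood at 167, 150, 89.6, 177 and 301 CPM. The groups overlapped, and the log2 fold change was −0.38 (95% interval −1.28 to 0.52, edgeR adjusted p = 1.00). Slc26a7 (805 ± 310 CPM in RW, 778 ± 212 in aJ1aJ2) had a log2 fold change of −0.07 (interval −0.87 to 0.72). Iyd (736 ± 284 and 701 ± 218 CPM) had one of −0.10 (interval −0.88 to 0.69). For these 2 abundant genes the interval reaches changes of almost 1 log2 unit, so smaller shifts were not detectable.

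Among the genes of lower level at that time, Ano1 had the clearest difference. It stood at 26.3, 30.9, 36.0, 33.2 and 44.8 CPM in RW. It stood at 26.0, 29.9, 18.8, 27.5 and 22.4 CPM in aJ1aJ2, in each of 5 libraries below the RW mean but with overlap. The log2 fold change was −0.49 (SE 0.21, adjusted p = 0.715), and this was the only 1 of 6 tested genes with an unadjusted p below 0.05. Kcnq1 (−0.33, adjusted p = 1.00) and Slc26a4 (−0.85, SE 0.54, adjusted p = 0.933, on 24 counts against 48) did not pass. DESeq2 called 0 of the 6 as well. Over all genes, edgeR called 0.573% and 1.81% had groups that did not overlap. The median log2 fold change was −0.35 for the 6 genes and −0.03 for all genes.

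Relative to Pax8, the ratios of Slc5a5, Slc26a7, Iyd, Ano1 and Kcnq1 were below the RW mean in 5 of 5 aJ1aJ2 libraries at 15 hours, each with overlap. Slc26a4, also tested, was not, with replicate 3 at 0.00118 above the RW mean of 0.000805 (log2 fold change −0.98, edgeR adjusted p = 0.858). How many of all genes lay below the RW mean in 5 of 5 libraries was not counted. The Slc5a5 ratio was 0.594 ± 0.242 in RW and 0.375 ± 0.0974 in aJ1aJ2 (log2 fold change −0.66, SE 0.30, edgeR adjusted p = 0.858). The Kcnq1 ratio was 0.0180 ± 0.00538 and 0.0110 ± 0.00223 (−0.70, SE 0.32, adjusted p = 0.858). These 2 had an unadjusted p below 0.05, and 0 of 6 passed the threshold. On this scale edgeR called 0.167% of all genes and 2.86% had groups that did not overlap. The scale itself moved the median of all genes to −0.31, against −0.68 for the 6 genes. Pax8 was 365 ± 94.0 CPM in RW and 471 ± 138 in aJ1aJ2, and a scale set by 1 gene carries that gene's own spread into every ratio.

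With receptor blockade, Slc5a5 had a lower mean than RW at 15 hours, short of the threshold. The aN1aN2 libraries stood at 98.8, 36.7, 85.1, 131 and 50.0 CPM, against the RW values given above, which both comparisons share. All 5 lay below the RW mean of 226 CPM, and the highest overlapped the lower RW libraries. The log2 fold change was −1.51 (SE 0.43, 95% interval −2.43 to −0.59, edgeR adjusted p = 0.0976). DESeq2 put the adjusted p at 0.0153, and edgeR with the muscle share as a covariate at 0.0354. Over the 6 alternatives run, the adjusted p ranged from 0.0153 to 0.172. The muscle genes took 0.149 to 5.11% of counts in aN1aN2 (median 3.38%) and 0.0531 to 5.86% in RW (median 0.834%). The thyrocyte genes took a median of 22.1% in aN1aN2 and 26.2% in RW. The aN1aN2 libraries of 15 hours carry sample numbers that run on into those of the 5-day libraries, apart from the RW and aJ1aJ2 libraries of 15 hours. The library scale behind their deposited FPKM values, relative to a size factor from the counts, was 1.09 to 1.13, against 0.929 to 0.940 in RW of 15 hours. The antibody and this division of the libraries cannot be told apart in the comparisons of aN1aN2 with RW at 15 hours.

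The efflux and recycling genes differed less in that comparison. Ano1 stood at 24.3, 31.1, 16.0, 17.1 and 29.4 CPM in aN1aN2, below the RW mean in 5 of 5 libraries with overlap (log2 fold change −0.56, SE 0.21, adjusted p = 0.221). Slc26a7 was 501 ± 263 CPM (−0.70, SE 0.37, adjusted p = 0.419) and Iyd 592 ± 268 CPM (−0.33, adjusted p = 0.738). Kcnq1 was 5.00 ± 1.72 CPM (−0.38, adjusted p = 0.621), and Slc26a4 had 40 counts in the 5 libraries (−0.36, adjusted p = 0.808). By edgeR 0 of 6 genes passed, and Slc5a5 and Ano1 had an unadjusted p below 0.05. Over all genes 1.68% were called and 5.12% had groups that did not overlap, and the median was −0.47 for the 6 genes and 0.01 for all.

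Dividing by Pax8 left a smaller Slc5a5 difference at 15 hours. The ratios were 0.549, 0.329, 0.992, 0.552 and 0.547 in RW. They were 0.237, 0.278, 0.262, 0.310 and 0.357 in aN1aN2. A single RW library, replicate 2, fell within the aN1aN2 range. The log2 fold change was −1.04 (SE 0.30, interval −1.68 to −0.40, edgeR adjusted p = 0.254), while the median of all genes on this scale was 0.64. Iyd (0.14), Ano1 (0.20), Kcnq1 (0.14) and Slc26a4 (0.61) had the opposite sign to their CPM differences, and Slc26a7 was at −0.29. None passed, 1 of 6 (Slc5a5) had an unadjusted p below 0.05, and of all genes 0.259% were called and 2.06% had groups that did not overlap.

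**Figure D3:**
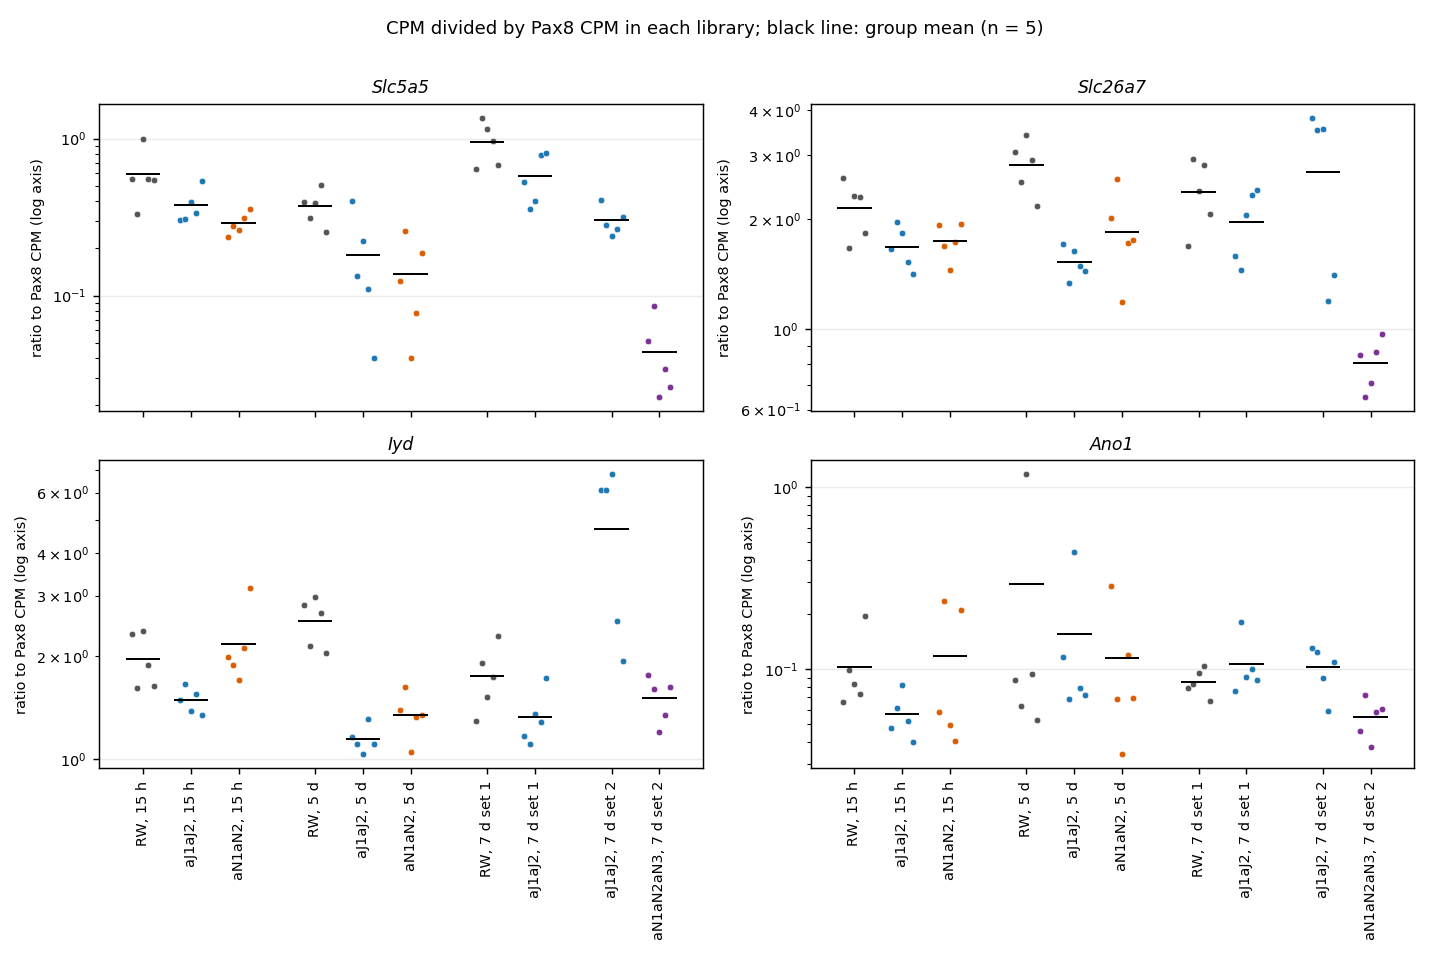
Ratio of the CPM of Slc5a5, Slc26a7, Iyd and Ano1 to that of Pax8 in each of 50 libraries, on log axes, by group, with a black line at the mean of 5 libraries. At 5 days the Iyd ratios of RW (2.04 to 2.97) lie above all those of aJ1aJ2 (1.03 to 1.31) and aN1aN2 (1.04 to 1.62), and the high Ano1 point of RW at 1.17 is replicate 3.

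At 5 days the CPM of the iodide genes was dominated by differences between libraries of a group, and 0 of 5 tested genes passed in either comparison. Slc5a5 stood at 118, 118, 2.85, 166 and 114 CPM in RW. It stood at 133, 74.3, 8.17, 55.4 and 17.5 CPM in aJ1aJ2, and at 14.3, 94.1, 29.1, 11.7 and 96.4 CPM in aN1aN2. Apart from replicate 3, every RW library was at 114 CPM or more, and 1 of 10 antibody libraries reached that level. The log2 fold change was −0.84 (95% interval −2.75 to 1.07, edgeR adjusted p = 0.722) for aJ1aJ2 and −1.09 (interval −3.01 to 0.83, adjusted p = 0.824) for aN1aN2. Without replicate 3 of RW and of aJ1aJ2 it was −0.86 (adjusted p = 0.615) and −1.40 (adjusted p = 0.214), a choice made after seeing the data.

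The other 4 tested genes had intervals that included 0 on the CPM scale at 5 days. Iyd was 693 ± 377 CPM in RW, 435 ± 247 in aJ1aJ2 (log2 fold change −0.66) and 480 ± 278 in aN1aN2 (−0.54). Slc26a7 was 768 ± 416, 550 ± 284 (−0.47) and 639 ± 358 CPM (−0.27). Ano1 was 22.6 ± 8.38 CPM in RW, 32.8 ± 9.76 in aJ1aJ2 (0.55, SE 0.30, adjusted p = 0.509) and 27.4 ± 7.05 in aN1aN2 (0.29). Kcnq1 was 5.75 ± 2.79, 7.13 ± 3.17 (0.32) and 5.57 ± 1.57 CPM (−0.04). Slc5a5, Slc26a7 and Iyd thus had lower means than RW in both antibody groups and Ano1 higher means, none past the test. An unadjusted p below 0.05 was reached by 0 of 5 in either comparison, and DESeq2 called 0.

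Over all genes at 5 days, edgeR called 0.179% for aJ1aJ2 and 0% for aN1aN2, where 1848 of 18434 genes had an unadjusted p below 0.05. For 3.81% and 2.13% of genes the groups did not overlap. Without the 2 libraries the calls over all genes became 242 and 74, with 0 among the iodide genes. The medians were −0.47 (aJ1aJ2) and −0.27 (aN1aN2) for the 5 genes, against −0.06 and −0.07 for all genes.

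Per Pax8, the Iyd ratio at 5 days separated RW from both antibody groups. It was 2.82, 2.14, 2.97, 2.67 and 2.04 in RW. It was 1.16, 1.11, 1.03, 1.31 and 1.11 in aJ1aJ2, and 1.39, 1.62, 1.04, 1.33 and 1.34 in aN1aN2. No library of either antibody group reached the lowest RW library, RW replicate 3 included. Slc26a7 did so for aJ1aJ2 alone, with ratios of 3.07, 2.54, 3.41, 2.92 and 2.18 in RW and 1.71, 1.34, 1.64, 1.49 and 1.45 in aJ1aJ2. In aN1aN2 its ratios were 2.01, 2.58, 1.19, 1.72 and 1.76, which overlapped RW. Groups did not overlap for 0.559% of all genes in the aJ1aJ2 comparison and for 0.526% in that of aN1aN2. On the CPM scale these shares were 3.81% and 2.13%. They were not computed without replicate 3 of RW and of aJ1aJ2, which were low in Pax8.

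The edgeR test on the Pax8 scale called none of these differences at 5 days. For Iyd the log2 fold change was −1.15 (SE 1.00, adjusted p = 0.384) in aJ1aJ2 and −0.91 (SE 0.99, adjusted p = 0.437) in aN1aN2. For Slc26a7 it was −0.89 (SE 1.02, adjusted p = 0.504) and −0.61 (SE 1.02, adjusted p = 0.618). These SEs come from the edgeR fit, which shares information on spread between genes, and are not the spread of the ratios alone. The Iyd ratio itself was 2.53 ± 0.418 in RW, 1.14 ± 0.102 in aJ1aJ2 and 1.35 ± 0.206 in aN1aN2. Slc5a5 ratios were 0.394, 0.310, 0.389, 0.507 and 0.255 in RW. They were 0.401, 0.134, 0.222, 0.111 and 0.0402 in aJ1aJ2, and 0.123, 0.259, 0.0402, 0.0771 and 0.188 in aN1aN2. The aJ1aJ2 ratios overlapped RW through replicate 1 and the aN1aN2 ratios through replicate 2. The log2 fold changes of Slc5a5 were −1.03 (adjusted p = 0.413) and −1.43 (adjusted p = 0.214).

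The 2 libraries poor in thyrocyte transcripts set much of this scale. RW replicate 3 had an Ano1 ratio of 1.17 against 0.0523 to 0.0944 in the other RW libraries, and a Kcnq1 ratio of 0.107 against 0.0167 to 0.0236. The Ano1 log2 fold changes of −0.91 (aJ1aJ2) and −1.34 (aN1aN2) became 0.18 and 0.64 without both libraries. Those of Kcnq1, −0.45 and −0.82, became −0.08 and 0.04. Iyd kept −1.05 and −0.84 there, Slc26a7 −0.84 and −0.53 and Slc5a5 −1.10 and −1.42, all with adjusted p of at least 0.337. Over all genes 0% were called in either comparison with the median at −1.93 and −2.62, against −0.91 and −0.91 for the 5 genes. An unadjusted p below 0.05 was reached by 1127 and 7172 of 18433 genes and by 0 of the 5.

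At 7 days in the first set, Slc5a5 was lower on average after ligand blockade, short of the threshold. It stood at 238, 469, 385, 371 and 286 CPM in RW. It stood at 281, 52.5, 153, 285 and 257 CPM in aJ1aJ2, below the RW mean in 5 of 5 libraries with overlap. The log2 fold change was −0.76 (SE 0.39, 95% interval −1.61 to 0.08, edgeR adjusted p = 0.469). Slc26a7 (882 ± 179 and 689 ± 267 CPM, −0.35, adjusted p = 0.644) and Iyd (657 ± 194 and 461 ± 175 CPM, −0.50, adjusted p = 0.535) were likewise below the RW mean in 5 of 5 libraries. The lowest value of all 3 genes came from aJ1aJ2 replicate 2, in which muscle genes took 7.78% of counts, against 0.122 to 1.89% in RW.

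Ano1 and Kcnq1 stood close to RW in that set. Ano1 was 31.7 ± 4.99 CPM in RW and 33.1 ± 5.74 in aJ1aJ2 (log2 fold change 0.08, interval −0.23 to 0.38), and Kcnq1 was 8.16 ± 0.855 and 7.55 ± 2.19 CPM (−0.10, interval −0.55 to 0.35). These were the narrowest intervals of either gene in any comparison. By edgeR 0 of 5 genes passed and 0 had an unadjusted p below 0.05, and DESeq2 called 0. Over all genes 0% were called, 1968 of 16954 had an unadjusted p below 0.05, and 3.51% had groups that did not overlap. The median was −0.35 for the 5 genes and 0.01 for all.

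Per Pax8, 0 of 5 genes passed in the first 7-day set. The Slc5a5 ratio was 0.956 ± 0.307 in RW and 0.577 ± 0.213 in aJ1aJ2 (log2 fold change −0.73, SE 0.34, edgeR adjusted p = 0.614). Iyd was at −0.40 and Slc26a7 at −0.28. Ano1 was at 0.32, against 0.08 on the CPM scale, and Kcnq1 at 0.05, against −0.10. On this scale 0% of all genes were called, 1199 of 16953 had an unadjusted p below 0.05 and 1.14% had groups that did not overlap. The median was −0.28 for the 5 genes and 0.30 for all.

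In the second 7-day set, Slc5a5 was lower with the 3 receptor antibodies than with the ligand antibodies. It stood at 84.0, 54.4, 56.8, 47.6 and 84.9 CPM in aJ1aJ2. It stood at 20.3, 39.1, 7.75, 16.5 and 6.59 CPM in aN1aN2aN3, and the groups did not overlap. Slc5a5 had a log2 fold change of −1.91 (SE 0.46, 95% interval −2.92 to −0.91, edgeR adjusted p = 0.0165). It passed in all 6 alternatives (adjusted p 0.000198 to 0.0437) and without each of the 10 libraries in turn (0.00568 to 0.0417). This set has no RW group here, so neither group's distance from control was measured.

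Slc26a7 and Iyd had lower means in the same direction without passing on the CPM scale. Slc26a7 stood at 786, 680, 836, 214 and 377 CPM in aJ1aJ2 and at 337, 295, 245, 420 and 243 CPM in aN1aN2aN3 (log2 fold change −0.96, SE 0.33, edgeR adjusted p = 0.0620). Iyd stood at 1263, 1176, 1598, 455 and 517 CPM and at 696, 729, 412, 654 and 405 CPM (−0.84, SE 0.35, adjusted p = 0.113). Both overlapped through aJ1aJ2 replicates 4 and 5, in which muscle genes took 10.7 and 4.01% of counts. Without replicate 4 both genes passed (adjusted p = 0.00939 and 0.0383), and without replicate 5 Slc26a7 did (0.0453). DESeq2 also called Slc26a7 (0.0267), as did edgeR with the muscle covariate (0.0474).

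Ano1 and Kcnq1 did not pass in the second set. Ano1 was 22.4 ± 7.26 CPM in aJ1aJ2 and 21.5 ± 8.65 in aN1aN2aN3 (log2 fold change −0.12, interval −0.79 to 0.56). Kcnq1 was 4.27 ± 2.34 and 7.41 ± 1.83 CPM, the only one of the 5 genes with a higher mean in aN1aN2aN3 (0.74, SE 0.37, adjusted p = 0.170). In all, 1 of 5 genes was called on the CPM scale, against 19.6% of all genes, and groups did not overlap for 1 of 5, against 15.1%. A count of 1 in 5 is thus close to the share among all genes. The median was −0.84 for the 5 genes and −0.07 for all.

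Shares of marker transcripts in the second set are given beside these values. Tg took 1.15 to 2.82% of counts in aJ1aJ2 and 3.73 to 6.50% in aN1aN2aN3. Markers of C cells, the calcitonin cells of the thyroid (5 genes), took 0.678 to 2.60% and 3.08 to 4.81%, and those of the parathyroid (3 genes) 0.0119 to 7.71% and 1.07 to 4.39%. Muscle genes took 0.0384 to 10.7% and 0.564 to 3.13%. Adipose markers (5 genes) took 0.247 to 0.520% in aJ1aJ2 and 0.0256 to 0.129% in aN1aN2aN3. Endothelial markers (3 genes) took 0.0113 to 0.0159% and 0.0175 to 0.0265%. The adipose share was thus lower in aN1aN2aN3, while those of Tg, C cells and endothelium were higher. The groups did not overlap in Tg and in the C cell, adipose and endothelial genes, and they overlapped in the parathyroid and muscle genes. Their part in the differences of the iodide genes was not tested beyond the muscle covariate. Slc5a5 was thus lower in the group in which Tg and Pax8 were higher: Pax8 was 217 ± 35.3 CPM in aJ1aJ2 and 386 ± 93.5 in aN1aN2aN3 (log2 fold change 0.78, SE 0.21, edgeR adjusted p = 0.0222).

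Relative to Pax8, 4 of 5 iodide genes were lower in aN1aN2aN3. The Slc5a5 ratios were 0.407, 0.282, 0.241, 0.265 and 0.317 in aJ1aJ2. They were 0.0511, 0.0861, 0.0225, 0.0339 and 0.0263 in aN1aN2aN3, with no overlap (log2 fold change −2.78, SE 0.36, edgeR adjusted p = 0.000102). The Slc26a7 ratios were 3.81, 3.53, 3.55, 1.19 and 1.41 against 0.850, 0.649, 0.710, 0.862 and 0.969, with no overlap (log2 fold change −1.74, SE 0.35, adjusted p = 0.00151). The Iyd ratios were 6.12, 6.10, 6.78, 2.53 and 1.93 against 1.76, 1.60, 1.20, 1.34 and 1.62, with no overlap (−1.64, SE 0.36, adjusted p = 0.00246).

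For Ano1 the ratio was 0.103 ± 0.0290 in aJ1aJ2 and 0.0549 ± 0.0135 in aN1aN2aN3 (log2 fold change −0.90, SE 0.28, edgeR adjusted p = 0.0167), with overlap. The Ano1 call was lost without aN1aN2aN3 replicate 3 (adjusted p = 0.0531). The Kcnq1 ratio was 0.0188 ± 0.00777 and 0.0197 ± 0.00432 (0.06, interval −0.66 to 0.78). Since Pax8 was higher in aN1aN2aN3, this scale moved the median of all genes to −0.80, against −1.64 for the 5 genes. It called 44.9% of all genes, and 24.0% had groups that did not overlap, beside 4 and 3 of the 5 iodide genes. With the geometric mean of Pax8, Nkx2-1, Foxe1 and Hhex as the scale, Slc5a5 alone passed (−2.19, adjusted p = 0.00138), and Slc26a7 (−1.07, adjusted p = 0.0776), Iyd (−0.99, adjusted p = 0.108) and Ano1 (−0.26, adjusted p = 0.648) did not.

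**Figure D4:**
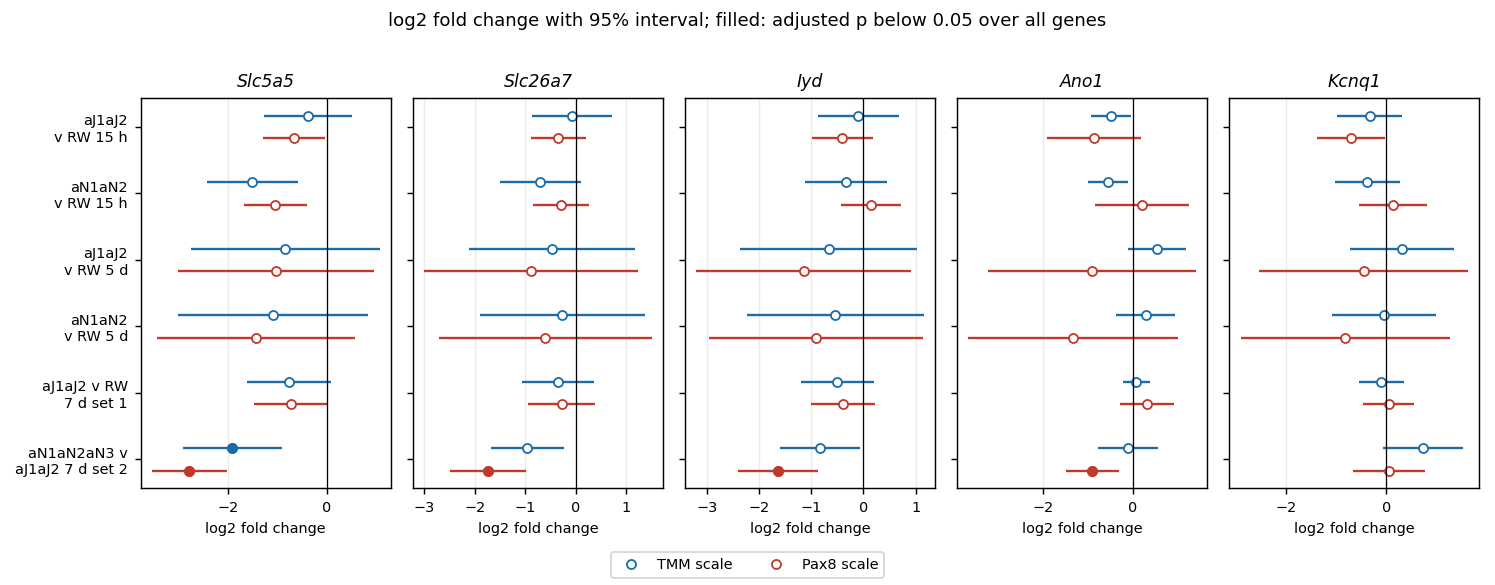
log2 fold changes of 5 genes in 6 comparisons with 95% intervals, on the library-size (TMM, blue) and the Pax8 scale (red). Filled points have an adjusted p below 0.05 over all genes, and they occur only in the second 7-day set, for Slc5a5 on both scales and for Slc26a7, Iyd and Ano1 on the Pax8 scale.

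Whether an antibody's effect differed between times was tested directly over the 40 libraries that have an RW control. Of 6 iodide genes tested, 0 passed for the aJ1aJ2 effect at 5 days or 7 days against 15 hours, or for the aN1aN2 effect at 5 days against 15 hours. Ano1 came nearest: the aJ1aJ2 effect was higher at 5 days than at 15 hours by 1.00 on the log2 scale (SE 0.36, edgeR adjusted p = 0.184), and the aN1aN2 effect by 0.82 (SE 0.36, adjusted p = 0.224). Ano1 alone had an unadjusted p below 0.05, in those 2 contrasts, which share the RW libraries of both times. For Slc5a5 the differences were −0.50 (SE 0.95), −0.39 (SE 0.95) and 0.43 (SE 0.95), so differences of about 1 log2 unit were not detectable. Over all genes 0.981%, 0.300% and 3.14% were called in the 3 contrasts. The aN1aN2 contrast contains the comparison of aN1aN2 with RW at 15 hours. The antibody and the division of the libraries described there cannot be told apart in this contrast either.

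Pendrin and the potassium channel subunit Kcne2 can be described by their counts. In the first 7-day set Slc26a4 stood at 0.140, 0.343, 0.239, 0.340 and 0.309 CPM in RW (30 counts in all). It stood at 0.113, 0.0649, 0.0554, 0.107 and 0.112 CPM in aJ1aJ2 (9 counts in all), and the groups did not overlap. The nearest libraries held 4 counts (RW replicate 1) and 2 counts (aJ1aJ2 replicate 1), and 3 counts equal 0.0568 to 0.196 CPM by library. In the ratio to Pax8 the groups overlapped, with aJ1aJ2 replicate 2 (0.000439) above RW replicate 1 (0.000376). In CPM, groups did not overlap for 3.51% of the genes above the filter, and that share over genes under the filter was not computed. The gene was under the filter there, and with no filter the log2 fold change was −1.49 (edgeR adjusted p = 0.321). At 5 days the Slc26a4 counts were 42 (RW), 17 (aJ1aJ2) and 56 (aN1aN2), and 30 of the last came from replicate 1 (26 without it). Kcne2 had 15, 30 and 41 counts in those groups, of which replicate 1 gave 11 in RW (4 without it) and 20 in aN1aN2 (21 without it). It had 20 and 44 counts in aJ1aJ2 and aN1aN2aN3 of the second set. With no filter the Kcne2 log2 fold changes were 1.11, 1.51 and 0.76 in those 3 comparisons, with adjusted p from 0.537 to 0.632. At 15 hours Kcne2 had 30 (RW), 21 (aJ1aJ2) and 19 (aN1aN2) counts, with log2 fold changes of −0.40 and −0.68. In the first 7-day set it had 16 counts in each group (0.21). Slc26a4 had 5 counts in aJ1aJ2 and 14 in aN1aN2aN3 of the second set, 8 of these from replicate 5. Its log2 fold change there was 1.09 with no filter (edgeR adjusted p = 0.552).

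Genes that act beside iodide transport were counted from 4 lists: hormone synthesis (Tg, Duox1, Duox2, Duoxa1, Duoxa2, Tshr), thyrocyte transcription factors (Pax8, Nkx2-1, Foxe1, Hhex), other anion transporters and channels (Slc5a8, Cftr, Clcn5, Clcn3, Slc26a6, Lrrc8a), and ion gradients and partners (Atp1b1, Slc5a3). In the 5 comparisons with RW, edgeR called 0 of the 6, 4, 6 and 2 genes on the CPM scale, and 0 or 1 gene per list had an unadjusted p below 0.05. On the Pax8 scale 0 were called as well, and 0 to 3 genes per list had an unadjusted p below 0.05. In the second set Tg, the precursor protein of thyroid hormone, was 14310 CPM in aJ1aJ2 and 36878 CPM in aN1aN2aN3 (log2 fold change 1.31, SE 0.31, adjusted p = 0.0137). Slc5a3, a sodium-coupled inositol carrier, was higher in aN1aN2aN3 by 1.39 (SE 0.31, adjusted p = 0.0106), and its exons are shared with Mrps6. With Pax8 these were 3 of 18 genes past the test on the CPM scale, all 3 higher in aN1aN2aN3, beside 19.6% of all genes, so the count is close to the share among all genes.

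On the Pax8 scale of the second set, 5 of 6 hormone synthesis genes were lower in aN1aN2aN3. They were the hydrogen peroxide producers Duox1 (log2 fold change −1.87) and Duox2 (−1.02), their maturation factors Duoxa1 (−1.59) and Duoxa2 (−1.92), whose exons overlap each other, and the TSH receptor Tshr (−0.62). So were the transcription factors Foxe1 (−1.06) and Hhex (−0.93), 2 of the 3 tested. Of the other anion transporters, Slc26a6 (−2.17) and Slc5a8 (−1.26) were lower, 2 of 6. Of the partners, 0 of 2 passed the test. The edgeR adjusted p of these ran from 0.00130 to 0.0484. In all, 9 of 17 tested genes of the lists were called, close to the background of 44.9% given above. The median of all genes on this scale, also given above, was below 0 because Pax8 was higher in aN1aN2aN3. Tshr was less lowered than that median, and Hhex and Duox2 were near it.

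Within groups the iodide genes varied together to unequal degrees. With group means removed, over 50 libraries, Pearson's r of log2 CPM was 0.98 between Slc26a7 and Iyd, a description of libraries that share differences in tissue content and depth. With Pax8 it was 0.95 for Iyd, 0.94 for Slc26a7, 0.85 for Kcnq1, 0.83 for Slc5a5 and 0.56 for Ano1. With the muscle share it was −0.74 for Iyd, −0.75 for Slc26a7, −0.64 for Kcnq1, −0.52 for Slc5a5 and −0.35 for Ano1. Without RW replicate 3 of 5 days (49 libraries), r was 0.97 between Slc26a7 and Iyd, 0.74 between Pax8 and Slc5a5 and 0.40 between Pax8 and Ano1. Slc26a4 (0.02) and Kcne2 (−0.01), with their few counts, did not follow Pax8.

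The genes most like each member over the 50 libraries were found by the same measure among 16191 genes of at least 1 CPM on average. For Iyd they were Folr1 (r = 0.99), Asgr1 (0.99) and Dio1 (0.99), the last a deiodinase of thyroid hormones. For Slc26a7 they were Elovl7 (0.99), Ero1lb (0.98) and Me2 (0.98). For Slc5a5 they were Alg12 (0.90), Duox2 (0.90) and March9 (0.90), of which Duox2 makes hydrogen peroxide for iodination. For Kcnq1 they included Eif2ak3 and Sec24d (each 0.92), and for Ano1 Acpp (0.82), E330009J07Rik (0.81) and Slc44a4 (0.81). The nearest gene reached 0.61 for Slc26a4 (Muc20) and 0.53 for Kcne2 (Aph1c).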

How the data were processed

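RNA was sequenced from 50 thyroid samples on an Illumina instrument, single-end, per the labels. The authors deposited a table of raw counts per Ensembl gene and a table of FPKM values. The submitters' processing notes name GSNAP and limma, and with aligner settings, build and strand use not given in the sources used here. Deposited FPKM values scale with gene span including introns (implied length over span, median 0.980 over 18922 genes), so levels between genes are given as CPM per kb of exon instead. Depth was 15271242 to 52835846 counts per library, which left 0 to 30 counts per library for Slc26a4 and 0 to 20 for Kcne2. Symbols came from GENCODE M21 for 52403 of 52636 genes. Of 100 within-group library pairs compared by chi-square, the smallest value per degree of freedom was 17.1, so no pair agreed within sampling noise.

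Counts were tested with edgeR 4.0.16 (R 4.3.3): TMM scaling, filterByExpr (minimum count 10, minimum total 15), robust quasi-likelihood fits of all groups of a time and set, and Benjamini-Hochberg adjustment over all genes tested, with a threshold of 0.05. CPM values use TMM factors over all 50 libraries. For the Pax8 scale the Pax8 count replaced the library size. Alternatives were DESeq2 1.42.0, limma 3.58.1 on log2(FPKM + 0.1), RLE size factors, no filter, a muscle covariate, only the groups of the contrast, a scale of 4 transcription factors, a replicate block and leaving out each library. Correlations used log2(CPM + 0.5). Scripts were tested on simulated data. All 7 iodide genes are given for each comparison by their levels or counts, with pathway genes from 4 lists where they pass the test. The genes most like each member are named too (3 sought for each). Some genes of the lists and of those most like a member are not reported here. The genes and lists were chosen with earlier results of these data known.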

Additional observations from a re-analysis of the deposited data

Results flagged for a closer look

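Of 140 sets of 5 libraries (7 genes, 10 groups, CPM and ratio to Pax8), 25 held a library that stood far from the other 4. The rule flags about 1 in 20 (7.0 sets) where values are normally distributed. These sets share libraries and Pax8 values, and some hold few counts, so 25 against 7.0 is not a test. In CPM, RW replicate 3 at 5 days was far below its group for Slc26a7 (24.9), Iyd (21.7) and Kcnq1 (0.785). The low libraries elsewhere were aJ1aJ2 replicate 3 at 5 days for Slc26a7 (60.3), aJ1aJ2 replicate 2 of the first 7-day set for Slc26a7 (215) and Kcnq1 (3.77), and aJ1aJ2 replicate 3 at 15 hours for Iyd (315). The high libraries were aN1aN2 replicate 1 at 5 days (0.945) and aJ1aJ2 replicate 2 of the second set (0.139) for Slc26a4, and RW replicate 4 at 7 days for Ano1 (40.3).

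In the ratio to Pax8 all 15 of the values that stood apart, from 9 libraries, were high. RW replicate 3 at 5 days did so for Slc26a4 (0.00671), Ano1 (1.17) and Kcnq1 (0.107), and aJ1aJ2 replicate 3 at 5 days for Slc26a4 (0.00387), Kcne2 (0.00387), Ano1 (0.440) and Kcnq1 (0.0571). In aN1aN2 replicate 1 at 5 days the ratio was high for Slc26a4 (0.00813) and Kcne2 (0.00542). Others were Slc26a4 in aJ1aJ2 replicate 2 (0.000723) and aN1aN2aN3 replicate 5 (0.00121) of the second set, and Ano1 in RW replicate 5 at 15 hours (0.196) and in aJ1aJ2 replicate 2 of the first 7-day set (0.182). The last were Iyd in aN1aN2 replicate 5 at 15 hours (3.16) and Kcnq1 in aJ1aJ2 replicate 4 at 15 hours (0.0149). Muscle genes took 12.4% of counts in RW replicate 3 and 8.22% in aJ1aJ2 replicate 3 at 5 days, and their part in these values was not tested.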

How the results depend on the processing

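The number of iodide genes past the threshold was 0 against RW in every run that left out 1 library. In the second set it was 1 to 3 on the CPM scale and 3 to 4 on the Pax8 scale, the 3 genes on the CPM scale being found without aJ1aJ2 replicate 4. It became 1 for aN1aN2 at 15 hours with DESeq2 and 1 with the muscle covariate (Slc5a5, −1.50 and −1.42), and 2 for aN1aN2 at 5 days on the Pax8 scale with that covariate (Slc5a5 −1.58, adjusted p = 0.00463, and Ano1 −1.23, adjusted p = 0.0178), a fit that called 15091 of 18433 genes. In the second set it became 2 with DESeq2, 2 with the covariate, and 1 on the scale of 4 transcription factors. The causes were not tested.

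In no pair of groups did all 5 same-numbered pairs of libraries correlate above 0.1, so the numbers were not taken as pairing. It was 4 of 5 for RW and aJ1aJ2 at 5 days (−0.209 to 0.715, 3 best with their own number) and for RW and aN1aN2 at 15 hours (−0.166 to 0.799, 2 best), and 0 of 5 in the second set (−0.295 to 0.0652, 0 best). With the replicate block the second set had 1 gene past the threshold on the CPM scale (Slc5a5 −2.18, edgeR adjusted p = 0.0322) and 3 on the Pax8 scale (Ano1 −0.89, adjusted p = 0.0614). With the block Slc26a7 was 0.045 for aJ1aJ2 at 15 hours and 0.21 for aN1aN2 at 5 days, and Kcnq1 0.23 for the latter.

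Values that changed sign, none past the threshold, were for aN1aN2 at 5 days Iyd 0.40, Kcnq1 0.55 and Slc26a7 0.65 with the muscle covariate and Slc26a7 0.13 on FPKM. Kcnq1 at 7 days was 0.021, or −0.023 on the Pax8 scale, with the covariate. Without replicate 3 of RW and aJ1aJ2 at 5 days, on the Pax8 scale, Ano1 was 0.18 (aJ1aJ2) and 0.64 (aN1aN2), and Kcnq1 0.044 (aN1aN2). Leaving out 1 library gave, on the Pax8 scale, Ano1 −1.79 to 1.06 (aJ1aJ2, 5 days), −2.00 to 0.64 (aN1aN2, 5 days) and −0.21 to 0.56 (aN1aN2, 15 hours), Iyd −0.031 to 0.22 and Slc26a4 −0.30 to 0.92 (both aN1aN2, 15 hours). Kcnq1 ran there from −0.93 to 0.41 (aJ1aJ2, 5 days), −1.21 to 0.047 (aN1aN2, 5 days), −0.077 to 0.28 (aN1aN2, 15 hours), −0.045 to 0.15 (first 7-day set) and −0.14 to 0.26 (second set). On the CPM scale it gave Ano1 −0.32 to 0.029 (second set), Iyd −0.24 to 0.11 and Slc26a7 −0.22 to 0.10 (aJ1aJ2, 15 hours), and Kcnq1 −0.17 to 0.058 (first 7-day set) and −0.32 to 0.085 (aN1aN2, 5 days). For changes between times it gave Iyd −0.54 to 0.027 and Slc26a4 −0.21 to 1.04 (aN1aN2) and Kcnq1 −0.0094 to 0.40 (aJ1aJ2, 7 days).

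Counts over all genes depended on the tool. For aJ1aJ2 and aN1aN2 at 15 hours, the same at 5 days, and aJ1aJ2 at 7 days, DESeq2 called 265, 842, 522, 402 and 417 genes, edgeR 106, 311, 33, 0 and 0, and edgeR with the muscle covariate 144, 686, 986, 847 and 6. Without a filter edgeR called 114, 278, 9, 0 and 20, and with the replicate block 36, 186, 1, 0 and 0. Fitting only the groups of a contrast gave 48, 242, 0 and 0 at 15 hours and 5 days. On the Pax8 scale the covariate gave 50 and 137 at 15 hours, in place of 31 and 48, and the block 13 and 54. On that scale aJ1aJ2 at 5 days had 0 calls, 713 with the covariate and 11203 without aJ1aJ2 replicate 3, none of them an iodide gene. In the second set the counts were 3614 as reported and 2100 with the block on the CPM scale, and 8284, 5364 with the block and 1258 with the 4-factor scale on the Pax8 scale. The FPKM alternative was not run for aN1aN2 at 15 hours, where groups came from separate FPKM scalings. Low counts limit Slc26a4 (0 to 30 per library) and Kcne2 (0 to 20), and Kcnq1 had as few as 16 in a library.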
